A study of Mus musculus with 8 samples.

Results

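The genes described here encode the machinery with which a cell shows fragments of its own proteins on its surface, the MHC class I antigen presentation pathway. They are 10 genes, H2-K1, H2-D1, B2m, Tap1, Tap2, Tapbp, Psmb8, Psmb9, Psmb10 and Nlrc5, chosen by name for their role in the pathway, out of 43629 genes in the deposited table. Each of the 10 matched 1 Ensembl identifier in that table, and all 10 passed the filter on low counts.

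In this pathway proteins are cut by the proteasome, the peptides are carried into the endoplasmic reticulum by the transporter TAP, and there they are loaded on a class I heavy chain held together with the light chain β2-microglobulin. The loaded complex travels to the cell surface, where CD8+ T cells read it. Interferons raise the pathway in most cell types, in part by exchanging the catalytic subunits of the constitutive proteasome for those of the immunoproteasome, and adipocytes are among the non-immune cells that carry class I molecules.

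The RNA came from 3T3-L1, a mouse pre-adipocyte line that becomes fat-storing adipocytes in culture. The line was induced with insulin, dexamethasone, isobutylmethylxanthine and rosiglitazone, and on day 8 of differentiation the cells were treated for 24 h. There were 4 groups of 2 cultures, with 1 library each. One group was left untreated, one received A66, an inhibitor selective for p110α, the insulin-responsive catalytic subunit of PI3-kinase (2 μM in the labels, whereas the methods give another dose), one received the saturated fatty acid palmitate bound to bovine serum albumin (0.5 mM), and one received palmitate and A66 together. All 8 cultures are of 1 cell line, no culture with albumin alone is named in the labels, and the control is called untreated in the labels whereas the study's methods speak of DMSO, so that an effect of albumin or of a vehicle cannot be told apart from that of a treatment. The methods call the cultures biological repeats. Directions below rest on the labels, since A66 acts on the activity of an enzyme and no transcript checks directly which culture received it.

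The libraries held between 42247091 and 57529803 counts, and the 10 genes took 0.1339% to 0.1481% of them. Levels are given in CPM, which are counts divided by the size of their library and scaled as edgeR does. A gene was taken as detectable from 3 counts in a library, which is 0.0521 to 0.0710 CPM, and such a floor covers no error but that of counting. The lowest count of any of the 10 genes in any library was 59, for Psmb9. Markers of adipocytes were abundant, with Adipoq (adiponectin) at 2050 to 2550 CPM and Fabp4 (the fatty acid carrier of adipocytes) at 2640 to 3050 CPM. Some preadipocyte and fibroblast markers were abundant as well, with Col3a1 at 2950 to 3540 CPM and Fn1 at 2940 to 3400 CPM, while Dlk1 had no count. The levels below are thus those of whole cultures and were not assigned to a cell type. Of the 18 class II and leukocyte markers looked at, 6 passed the filter on low counts, and H2-Aa, H2-Eb1, Adgre1 and Cd3e had no count in any library. The highest of the 6 were Cd14 at 7.36 to 10.2 CPM and Cd68 at 2.57 to 5.74 CPM, where the member Psmb8 had 2.52 to 3.33 CPM. The leukocyte marker Ptprc had 1 count in all 8 libraries together. The 18 markers summed to between 19.8 and 20.3 CPM in the untreated libraries, 20 and 22.1 CPM under A66, 21.8 and 23.2 CPM under palmitate, and 25.3 and 25.7 CPM with palmitate and A66. In bulk RNA fewer cells and less RNA per cell cannot be told apart. On the main axis of variation between libraries, which held 19.6% of the variance, the first untreated library lay farthest out, and the calls of members are also given without each library.

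Of the 10 genes, 7 lie on chromosome 17 in the mouse MHC region, 2 on chromosome 8 (Psmb10 and Nlrc5) and 1 on chromosome 2 (B2m), in GENCODE M21 coordinates on GRCm38. Psmb9, Tap1, Psmb8 and Tap2 stand side by side within 34.3 kb, from 34181987 to 34216321 on chromosome 17. H2-K1 lies at chr17:33996017-34000347 on the minus strand and H2-D1 at chr17:35262730-35267499 on the plus strand. B2m lies at chr2:122147686-122153083, Tapbp at chr17:33915899-33929292, Psmb10 at chr8:105935735-105938444 and Nlrc5 at chr8:94434356-94527272.

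Class I promoters are known for a shared set of elements, and the results below turn on the heavy chains and their partners, so the bases before the start sites of H2-K1, H2-D1, B2m and Tap1 are shown. A window of 250 bases before to 50 after the RefSeq start (GRCm38.p6) was matched for 8 of the 10 genes. Tap2 and Nlrc5 were not matched. Below are the 250 bases before the start, 5′ to 3′ on the strand of the gene, at chr17:34000348-34000597 for H2-K1 (minus strand), chr17:35262844-35263093 for H2-D1 (plus strand), chr2:122147437-122147686 for B2m (plus strand) and chr17:34187306-34187555 for Tap1 (plus strand). Capitals mark matches, on either strand, to the κB-type letters GGGGATT, 2 forms of the interferon-response letters, GAANNGAAA and GAAANNGAA, the CRE-like letters TGACG and the CCAAT box.
H2-K1: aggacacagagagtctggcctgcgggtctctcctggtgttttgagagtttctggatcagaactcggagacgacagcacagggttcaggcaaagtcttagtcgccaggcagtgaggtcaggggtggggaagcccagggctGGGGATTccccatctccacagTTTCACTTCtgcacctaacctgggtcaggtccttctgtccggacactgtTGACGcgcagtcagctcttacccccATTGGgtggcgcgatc
H2-D1: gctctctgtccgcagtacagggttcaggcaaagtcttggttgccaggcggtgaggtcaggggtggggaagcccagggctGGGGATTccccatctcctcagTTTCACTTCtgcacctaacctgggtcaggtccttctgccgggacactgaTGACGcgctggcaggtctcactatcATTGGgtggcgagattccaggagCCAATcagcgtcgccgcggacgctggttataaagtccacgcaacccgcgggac
B2m: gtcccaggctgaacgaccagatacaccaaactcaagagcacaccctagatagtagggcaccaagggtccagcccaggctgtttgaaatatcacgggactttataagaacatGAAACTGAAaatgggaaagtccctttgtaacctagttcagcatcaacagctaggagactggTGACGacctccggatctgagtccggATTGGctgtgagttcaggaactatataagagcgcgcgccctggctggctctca
Tap1: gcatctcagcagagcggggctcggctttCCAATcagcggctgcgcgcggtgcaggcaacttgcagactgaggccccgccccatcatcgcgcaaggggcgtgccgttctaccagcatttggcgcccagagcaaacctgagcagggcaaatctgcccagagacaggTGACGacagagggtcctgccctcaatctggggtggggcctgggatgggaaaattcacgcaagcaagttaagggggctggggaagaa

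The κB-type letters were found in 3.12% of 32544 mouse promoter windows and, among the 8 members, in H2-K1 and H2-D1. The letters GAANNGAAA occurred in 7.57% of windows and again in H2-K1 and H2-D1 (read there as TTTCNNTTC on the opposite strand). The other form, GAAANNGAA, occurred in 8.53% of windows and, among the 8, in B2m, from 139 to 131 bases before its start. TGACG was found in 20.9% of all windows and in 5 of the 8, H2-K1, H2-D1, B2m, Tap1 and Psmb9. CCAAT was found in 37.4% of all windows and in 6 of the 8, those 5 and Tapbp, and H2-K1 held a further match after the start, outside the bases printed. In H2-D1 the elements stood farther from the RefSeq start, with the κB-type letters from 171 to 165 bases before it against 111 to 105 in H2-K1. The H2-D1 gene of GENCODE begins before the bases printed, at 35262730, so these distances hold for the RefSeq start only. Aligned to each other, the H2-K1 and H2-D1 windows were identical at 211 of 239 columns (88.3%). The windows of Tap1 and Psmb9 overlapped by 275 bases, since these genes are transcribed in opposite directions from a shared start region. These matches describe letters and not bound sites.

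The likeness of the heavy chains bears on how their reads can be counted. Of the 100-base windows of exon sequence, 0.957% of those in H2-K1 and 3.59% of those in H2-D1 also occur in another annotated gene, such as H2-Q7 in both cases, and reads from such windows cannot be assigned to 1 gene. For Tapbp this share was 0.0775%, and for the 7 other members no window was shared. The reference is that of C57BL/6, 3T3 cells come from Swiss mice, and class I heavy chains are highly polymorphic, so levels of H2-K1 and H2-D1 may be understated where alleles differ, which was not tested. Exons on the opposite strand overlap 24.9% of the exon bases of Tapbp, 18.5% of Tap2 and 14.7% of Psmb8, and because the sources used here do not say whether counting used the strand, reads of such partners cannot be told apart there.

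The cultures held very different amounts of the pathway's transcripts. Per kb of exon, B2m was highest at a median of 923 CPM over the 8 libraries (863 to 970), followed by H2-D1 at 101 (96.9 to 112), H2-K1 at 41.2 (35.1 to 44.2) and Tapbp at 39.8 (38.6 to 43.8). The light chain thus stood well above either heavy chain that it pairs with. Psmb10 was at 15.4 CPM per kb, the transporter subunits Tap2 and Tap1 at 7.55 and 3.04, and Nlrc5 at 2.50. The other immunoproteasome subunits were lowest, with Psmb8 at 0.880 and Psmb9 at 0.408 CPM per kb, and B2m was 2260 times Psmb9 on this scale, or 832 times when the longest coding transcript was taken as the length. Between neighbours in this order the ranges over the libraries overlapped for H2-K1 and Tapbp and for no other pair. The order was the same with that length.

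**Figure D1:**
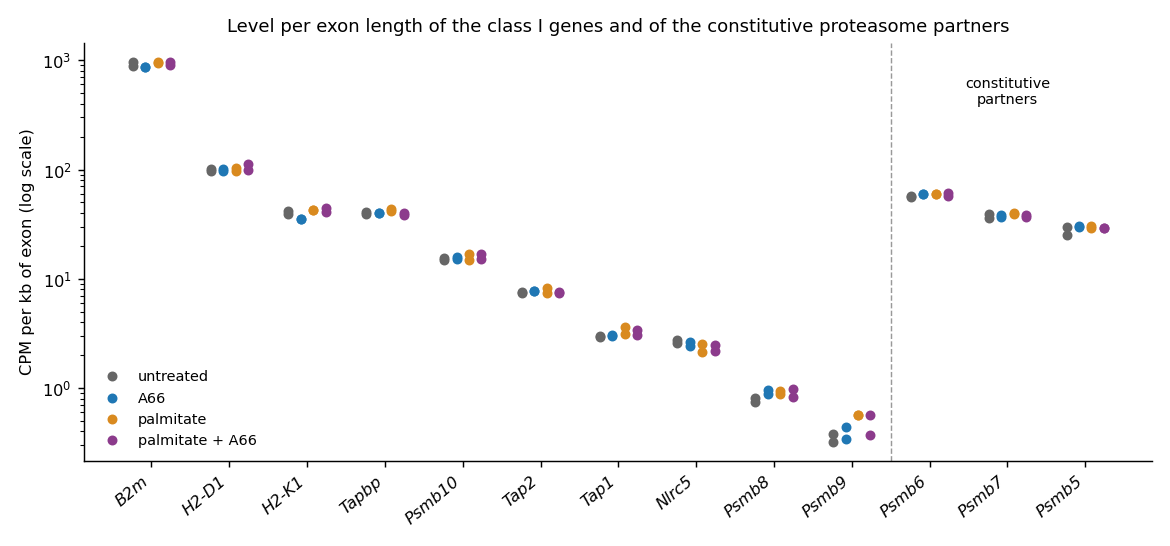
Level of each gene in CPM per kb of exon (vertical log axis) in the 8 libraries, 1 point per library, coloured by group, with Psmb6, Psmb7 and Psmb5, the constitutive proteasome partners of Psmb9, Psmb10 and Psmb8, at the right. B2m lies near 923 and Psmb9 near 0.408 CPM per kb, and the points of H2-K1 and Tapbp overlap.

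The heavy chains came first in the comparison of treatments. H2-K1, the K heavy chain, had 122 and 116 CPM in untreated cells, 104 and 103 under A66, 126 and 125 under palmitate, and 120 and 130 with palmitate and A66. Both libraries with A66 alone were below all 6 others, which ran from 116 to 130 CPM. H2-K1 fell by 0.20 on the log2 scale with A66 against untreated cells (SE 0.04, 95% interval -0.28 to -0.11, a ratio of 0.873), with an adjusted p of 0.0144 in the quasi-likelihood test of edgeR. With palmitate and A66 against A66 alone it was higher by 0.27 (SE 0.04, interval 0.18 to 0.36, a ratio of 1.21, adjusted p = 0.00068, edgeR). With palmitate against untreated cells its log2 difference was 0.07 (interval -0.02 to 0.17, adjusted p = 0.531, edgeR). The 2 calls share the libraries with A66 alone and are not independent of each other.

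H2-K1 was the single member called in either of these comparisons. With A66 against untreated cells 1 of 10 members was called, against 1.84% of the 14158 genes tested, and with palmitate in the presence of A66 1 of 10, against 2.73% of 14587 genes. The call in the comparison of A66 with untreated cells was lost without either A66 library (adjusted p = 0.128 without the first and 0.206 without the second, edgeR), while the log2 value stayed between -0.22 and -0.17 without any 1 library. The call for palmitate in the presence of A66 held without any 1 library, at log2 values of 0.22 to 0.32. Beside these calls, 8 of 12 adipocyte markers fell with palmitate in the presence of A66, among them Plin1 (the coat protein of lipid droplets, by 0.28) and Retn (resistin, by 0.32), and the macrophage marker Cd68 rose by 0.91, the single call among 6 class II and leukocyte markers tested, of which 5 had positive values and Lyz2 (lysozyme) had -0.32 (adjusted p = 0.422, edgeR). The 8 adipocyte markers became 1 (Retn) without the first A66 library or without the first library with both agents, and the call of Cd68 was lost without the first A66 library. With A66 against untreated cells edgeR called 0 of 12 adipocyte markers, though 7 had an unadjusted p under 0.05, against 12.8% of all genes tested. Of 10 preadipocyte and fibroblast markers tested there, 5 had an unadjusted p under 0.05 and 1 was called, Acta2 (smooth muscle actin), which rose by 0.23 (adjusted p = 0.0262, edgeR) and lost its call without the second A66 library. Without the first untreated library 1 adipocyte marker was called, and without the second 3. The preadipocyte and fibroblast list of 11 markers, of which Dlk1 was at 0 in every library, summed to 10400 and 10800 CPM in the untreated libraries and to 10700 and 10900 CPM under A66. Its median log2 difference was 0.03, and it was 0.07 without the first untreated library and -0.02 without the second. The part of these markers in the difference in H2-K1 was not tested.

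H2-D1, the D heavy chain, was not called in any of the 5 comparisons. It had 263 and 251 CPM in untreated cells, 264 and 251 under A66, 250 and 267 under palmitate, and 256 and 288 with palmitate and A66. All groups overlapped, and the second library with palmitate and A66 was highest. The log2 difference with A66 against untreated cells was 0.00 (interval -0.08 to 0.09) and with palmitate in the presence of A66 it was 0.08 (interval -0.03 to 0.18). The counts of H2-K1 were 46.2% and 46.3% of those of H2-D1 in untreated cells and 39.5% and 41.2% under A66. They were 50.2% and 46.9% under palmitate and 47.1% and 45.1% under both. The share was thus lowest in both libraries with A66 alone, and this measure does not depend on the scaling of the libraries.

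B2m, the light chain without which the heavy chains do not reach the surface, had 830 and 756 CPM in untreated cells, 746 and 742 under A66, 810 and 826 under palmitate, and 777 and 834 with palmitate and A66. As for H2-K1, both libraries with A66 alone were below all the others, but the untreated libraries were farther from each other than the group means were. The log2 difference with A66 against untreated cells was -0.09 (interval -0.18 to 0.00, adjusted p = 0.373, edgeR), and with palmitate in the presence of A66 it was 0.11 (interval 0.02 to 0.21, adjusted p = 0.234, edgeR). Among the alternatives run, B2m was called with A66 only when the second untreated library was left out, at a log2 value of -0.15 and an adjusted p of 0.00669 (edgeR). Without the first untreated library the value was -0.02 (adjusted p = 0.906, edgeR).

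**Figure D2:**
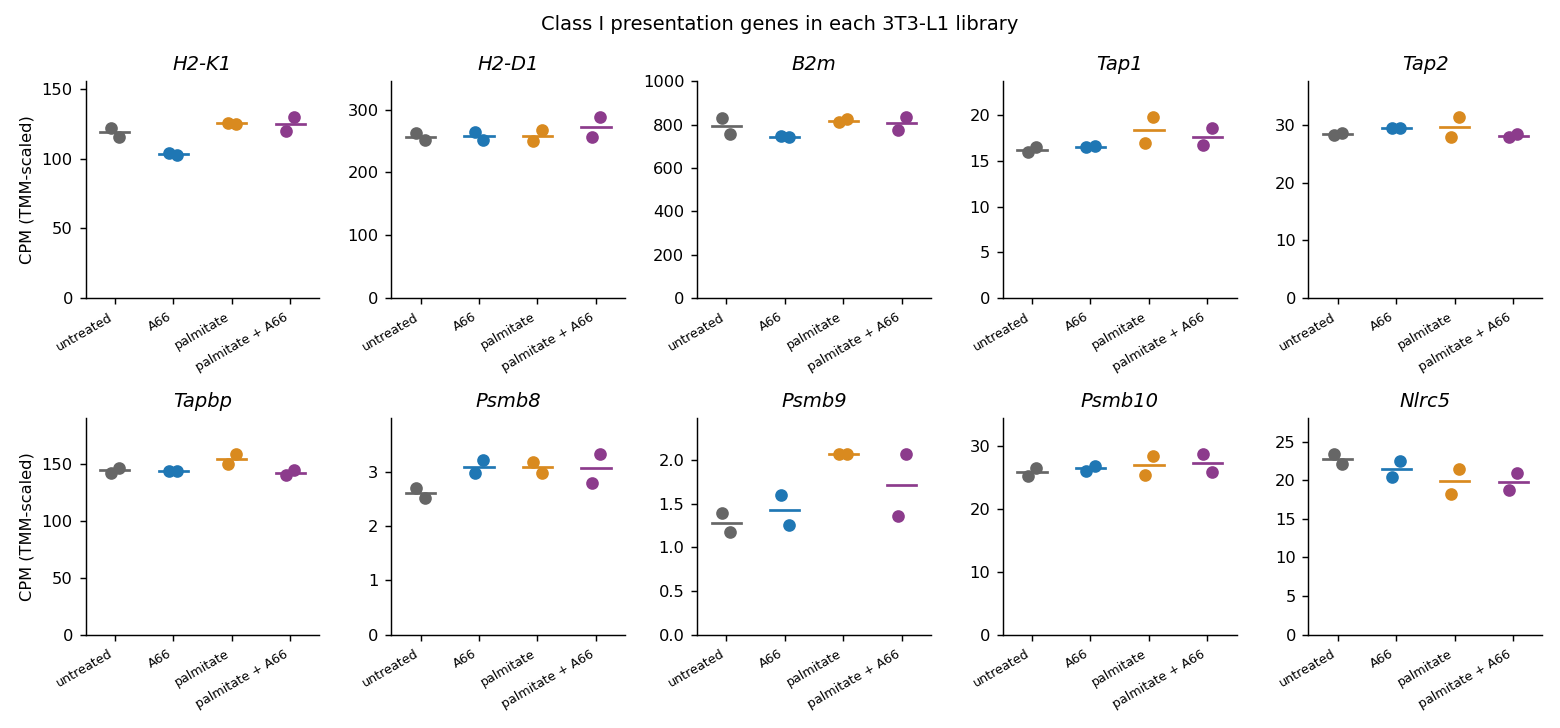
CPM of the 10 genes (vertical axes from 0, TMM-scaled, a separate scale for each gene) in the 4 groups, with 1 point per library and a bar at the group mean. Both points with A66 alone are the lowest for H2-K1, at 104 and 103 CPM, and for Psmb9 the untreated points lie below both points with palmitate.

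No gene of the transporter or of peptide loading was called in any comparison. Tap1, a subunit of the transporter, had 16 and 16.5 CPM in untreated cells, 16.5 and 16.6 under A66, 17 and 19.8 under palmitate, and 16.7 and 18.6 with palmitate and A66. The untreated libraries were the lowest by a narrow margin, and the 2 highest values were 1 from each group with palmitate. With palmitate against untreated cells the log2 difference was 0.18 (interval 0.00 to 0.36, adjusted p = 0.419, edgeR), and it was 0.29 without the first palmitate library and 0.067 without the second. Tap2, the partner subunit, had 28.3 and 28.7 CPM in untreated cells, 29.5 and 29.5 under A66, 28.0 and 31.4 under palmitate, and 28.0 and 28.4 with both, and its log2 differences lay between -0.07 and 0.06 in the 4 comparisons.

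Tapbp encodes tapasin, which bridges the transporter and the empty heavy chain. It had 142 and 147 CPM in untreated cells, 144 and 144 under A66, 150 and 159 under palmitate, and 140 and 145 with palmitate and A66. Both palmitate libraries were above the other 6. Its log2 difference with A66 in the presence of palmitate was -0.12 (SE 0.04, interval -0.21 to -0.04) with an adjusted p of 0.139, the smallest of any member in that comparison, and with palmitate against untreated cells it was 0.10 (interval 0.01 to 0.19, adjusted p = 0.319, edgeR). Tapbp thus lay past an unadjusted p of 0.05 in both, and passed the adjusted threshold in neither.

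The genes that act beside tapasin in loading and trimming were looked at as a list of 16, among them the chaperones Calr and Canx, the trimming enzyme Erap1, and the proteasome activator genes Psme1 and Psme2. None of the 16 was called by edgeR in any of the 5 comparisons with all libraries (1 to 4 had an unadjusted p under 0.05), and their median log2 differences were between -0.01 and 0.07, where the median over all genes was within 0.01 of 0. Canx (calnexin, which holds newly made heavy chains) had 600 CPM in both untreated libraries and 676 and 632 with palmitate. Its log2 difference was 0.12 with palmitate against untreated cells (adjusted p = 0.184) and 0.13 with palmitate in the presence of A66 (adjusted p = 0.0924, edgeR). Calr (calreticulin) was at 760 and 753 CPM in untreated cells and 721 and 702 with A66, a log2 difference of -0.09 (adjusted p = 0.306, edgeR). Psme2, a subunit of the PA28 activator, had the smallest unadjusted p of the list for the interaction, at a log2 value of -0.24 (adjusted p = 0.437, edgeR).

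The immunoproteasome subunits Psmb8 and Psmb9 were the members at the lowest level, and their differences had the widest intervals. Psmb9, the β1i subunit, had 1.39 and 1.17 CPM in untreated cells, 1.60 and 1.26 under A66, 2.07 in each palmitate library, and 1.36 and 2.07 with palmitate and A66. Both palmitate libraries were above both untreated ones and both with A66 alone, and the libraries with both agents were far apart. The log2 difference with palmitate against untreated cells was 0.71 (SE 0.24, interval 0.20 to 1.21, a ratio of 1.63), with an adjusted p of 0.195 (edgeR). It was the member with the smallest p in that comparison, in which 0 of 10 members were called, against 1.17% of 14587 genes. At an unadjusted p under 0.05 there were 3 of 10 members, Psmb9, Tapbp and Nlrc5, against 12% of all genes tested, and DESeq2 also called 0. The adjusted p of Psmb9 lay between 0.151 and 0.504 without any 1 library.

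Psmb8, the β5i subunit, had 2.71 and 2.52 CPM in untreated cells, 2.97 and 3.22 under A66, 3.18 and 2.98 under palmitate, and 2.80 and 3.33 with both. The untreated libraries were below all 6 treated ones. The log2 differences from untreated cells were 0.25 with A66 (interval -0.12 to 0.62) and 0.24 with palmitate (interval -0.11 to 0.59), and neither was called. Psmb10, the β2i subunit, had 25.3 and 26.5 CPM in untreated cells, 26.1 and 26.9 under A66, 25.5 and 28.5 under palmitate, and 28.8 and 25.9 with both. All its groups overlapped, and its log2 differences lay between 0.02 and 0.06 in the 4 comparisons.

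Set against the constitutive subunit that each of them replaces, the levels of the 3 immunoproteasome genes lay far apart. Per exon length, Psmb10 reached 37.4% to 44.5% of Psmb7 over the 8 libraries. Psmb8 reached 2.50% to 3.38% of Psmb5, and Psmb9 0.558% to 0.991% of Psmb6. The first of these depends on the length used, since Psmb10 in untreated cells was 40.5% of Psmb7 by the union of exons and 17.9% by the longest coding transcript. For Psmb8 over Psmb5 the values were 2.84% and 5.90%, and for Psmb9 over Psmb6 0.621% and 0.717%, so the order of the 3 shares was the same under both lengths. By library, Psmb9 over Psmb6 was 0.684% and 0.558% in untreated cells, 0.730% and 0.579% under A66, 0.952% and 0.941% under palmitate, and 0.611% and 0.991% under both. The palmitate libraries were the highest except for the second library with both agents.

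The constitutive partners themselves were not called in any comparison. Psmb5 had 22.7 and 26.7 CPM in untreated cells and between 26.1 and 27.5 in the other 6 libraries, so that the first untreated library stood alone. Psmb6 ranged from 104 to 114 CPM and Psmb7 from 123 to 137 CPM over all libraries. None of the 15 constitutive core and assembly genes was called by edgeR in any comparison with all libraries (0 to 4 had an unadjusted p under 0.05). With palmitate against untreated cells 14 of the 15 had a positive log2 difference, with a median of 0.08, and the smallest p belonged to Psmb4 (0.17, adjusted p = 0.186, edgeR) and Psmb3 (0.14, adjusted p = 0.189, edgeR). With A66 against untreated cells 12 of 15 were positive, with a median of 0.06. Both values rested on the first untreated library, without which 10 of 15 were positive with palmitate (median 0.02) and 7 of 15 with A66 (median -0.01). Without the second untreated library they were 13 of 15 in each comparison, with medians of 0.14 and 0.13 and with 1 and 3 genes called.

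**Figure D3:**
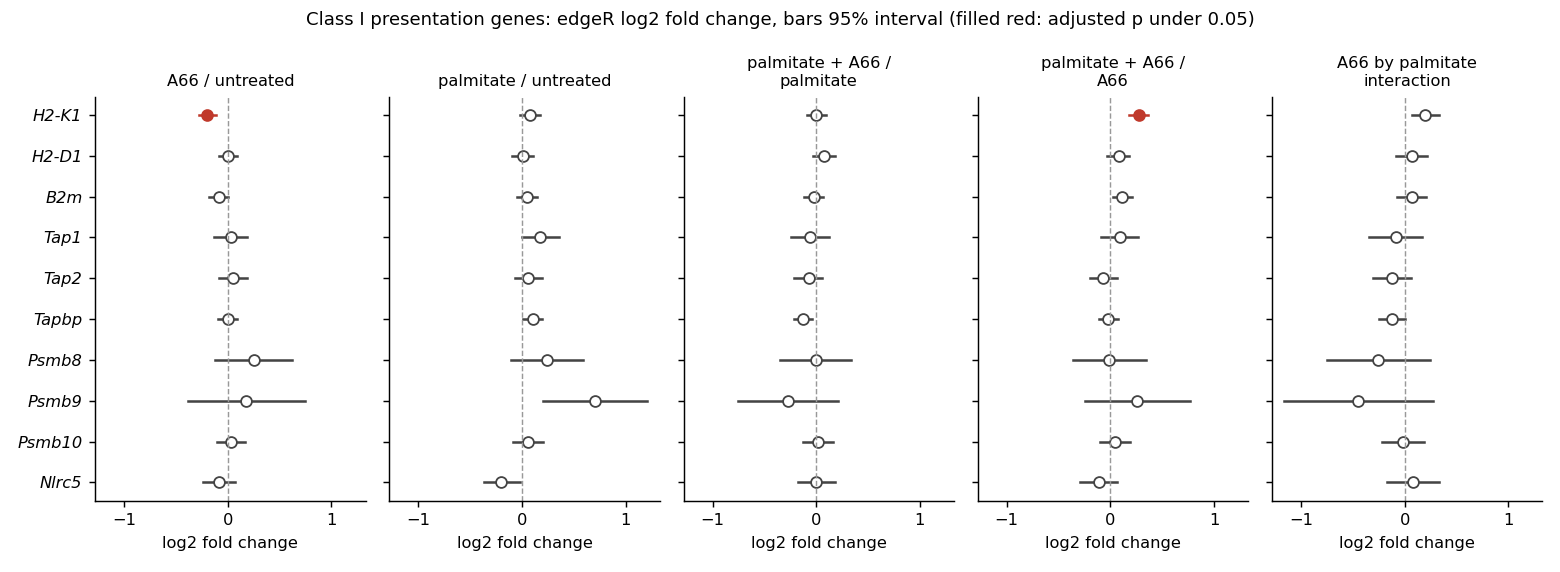
Log2 difference of each of the 10 genes (horizontal axes) in the 4 comparisons and the A66 by palmitate interaction, with bars for the 95% interval of the edgeR fit and filled red points where the adjusted p was under 0.05. H2-K1 is red at -0.20 with A66 against untreated cells and at 0.27 with palmitate in the presence of A66, and the bars of Psmb8 and Psmb9 are the widest.

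Nlrc5, the transactivator that binds class I promoters with the RFX factors, had 23.4 and 22.1 CPM in untreated cells, 20.4 and 22.5 under A66, 18.2 and 21.5 under palmitate, and 18.7 and 20.9 with both. Both libraries of each palmitate group were below both untreated ones. The log2 difference with palmitate against untreated cells was -0.20 (SE 0.08, interval -0.37 to -0.02, adjusted p = 0.328, edgeR), opposite in sign to the 9 other members in that comparison. It was -0.083 without the first palmitate library and -0.32 without the second. With A66 in the presence of palmitate it was 0.00 (interval -0.18 to 0.18).

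Other factors that act on class I promoters were looked at as a list of 22, of which 19 passed the filter. Irf9, part of the complex that binds interferon-response elements, had 17.7 and 18.6 CPM in untreated cells, 15.3 and 13.7 under A66, 16.8 and 20.7 under palmitate, and 13.7 and 13.1 with both. Its libraries with A66 were below those without it in the absence and in the presence of palmitate. Irf9 fell by 0.32 with A66 against untreated cells (adjusted p = 0.0471) and by 0.48 with A66 in the presence of palmitate (adjusted p = 0.0055, edgeR), the first of these named after its value was seen. Stat2 fell by 0.30 with A66 in the presence of palmitate (adjusted p = 0.0094, edgeR). Rfxank, a subunit of the RFX complex, fell by 0.25 with A66 against untreated cells (adjusted p = 0.0382, edgeR). The calls of Irf9 and Rfxank with A66 against untreated cells were lost without either A66 library, and that of Irf9 also without the second untreated one. Those of Irf9 and Stat2 in the presence of palmitate were lost without the second palmitate library or the second with both agents.

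In all, 3 of the 19 factors fell and none rose with A66 against untreated cells (among them Irf9 and Rfxank), and 3 fell and none rose with A66 in the presence of palmitate (among them Irf9 and Stat2). The first count became 0 without either A66 library, and the second 0 without the second palmitate library and 1 without the second library with both agents. No factor was called by edgeR in the other 3 comparisons with all libraries (0 to 2 had an unadjusted p under 0.05). Irf1, an interferon-induced activator of class I genes, was at 40.1 and 40.7 CPM in untreated cells and 35.9 and 41.0 with A66, a log2 difference of -0.07 (interval -0.20 to 0.06). Rfx5, the DNA-binding RFX subunit, was at 26.3 and 25.5 CPM in untreated cells and 23.1 and 23.9 with A66, a log2 difference of -0.14 (interval -0.28 to 0.00, adjusted p = 0.402, edgeR). Irf8 had no count in any library, and Ciita, the class II transactivator, had at most 0.0803 CPM.

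Among 11 tested interferon receptor and signalling genes, Ifngr1, a chain of the interferon-γ receptor, fell by 0.18 with A66 against untreated cells (adjusted p = 0.0367, edgeR), a call lost without either A66 library. With A66 in the presence of palmitate Usp18, a brake on type I interferon signalling that is itself induced by it, fell by 2.00 (SE 0.32, adjusted p = 0.000918) and Jak2, a receptor-bound kinase, rose by 0.18 (adjusted p = 0.0204, edgeR). The call of Usp18 held without any 1 library, and that of Jak2 was lost without any 1 of the 4 libraries compared. Usp18 had 2.32 and 2.35 CPM with palmitate and 0.804 and 0.361 with palmitate and A66. Ifnb1 had no count in any library, and Ifng had 6 counts in all 8 together.

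Interferon-stimulated genes, which cells switch on to resist viruses, were read beside the class I genes because both answer to interferon. With A66 in the presence of palmitate 18 of 31 fell and 1 rose, with a median log2 difference of -0.65 (-0.83 to -0.61 without any 1 library). Markers moved in this comparison as well. Of 12 adipocyte markers 10 were negative and 3 fell, Cidec by 0.23, Slc2a4 by 0.23 and Retn by 0.32. That count was 6 without the first palmitate library (list median -0.24 against -0.16) and 1 without the second (median -0.03) or without the first library with both agents (median -0.08). The 12 markers summed to 16100 and 17100 CPM with palmitate and to 15600 and 16700 CPM with both agents. Of the preadipocyte and fibroblast markers, Col1a1 fell by 0.33 and Acta2 rose by 0.35, the latter a call lost without the second palmitate library or the first with both agents. Of 6 class II and leukocyte markers tested 5 were positive, with a median of 0.21. By edgeR 0 of the 6 were called, and 3 had an unadjusted p under 0.05, against 14.4% of all genes tested. The part of these markers in the differences of the interferon-stimulated genes was not tested. The interferon-stimulated gene that rose was Samhd1 (0.22, adjusted p = 0.0106, edgeR), named after its value was seen, and its call was lost without the second palmitate library or the first with both agents. In the same comparison 0 of the 10 class I members were called, against 2.81% of 14587 genes, and their median log2 difference was -0.01. At an unadjusted p under 0.05 there was 1 member of 10, Tapbp, against 14.4% of all genes tested, and DESeq2 called 0. Oasl2, an antiviral gene, had 3.77 and 5.56 CPM with palmitate and 1.4 and 1.06 with both agents and fell by 1.92 (adjusted p = 6.13e-05), and Ifi44 fell by 1.76 (adjusted p = 0.000169, edgeR). Irf7, the factor that amplifies the type I interferon response, had 7.23 and 9.03 CPM with palmitate and 5.63 and 4.70 with both, and fell by 0.65 (adjusted p = 0.00725, edgeR). The calls of Oasl2 and Ifi44 held without any 1 library, and that of Irf7 was lost without the second palmitate library or the second with both agents. In the same comparison the log2 difference of H2-K1 was 0.00 (interval -0.09 to 0.09). It was -0.06 for Tap1 (interval -0.24 to 0.12), -0.01 for Psmb8 (interval -0.35 to 0.34) and -0.27 for Psmb9 (interval -0.75 to 0.21), genes that are themselves known as interferon-inducible. The value of Psmb9 was -0.0024 without the first library with both agents and -0.61 without the second.

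With A66 against untreated cells 5 of 29 tested interferon-stimulated genes fell and none rose, with a median of -0.25 (-0.16 without the first untreated library and -0.37 without the second), against a member median of 0.02. The called genes included Ifi44, which fell by 1.63 from 5.44 and 4.51 CPM to 1.08 and 2.15 (adjusted p = 0.000209), and Lgals3bp, which fell by 0.40 (adjusted p = 0.000708, edgeR). The count was 11 without the second untreated library, 2 without the first A66 library, and 3 without the first untreated or the second A66 library. With A66 in the presence of palmitate it was between 14 and 20 in either direction without any 1 library. With palmitate against untreated cells Ifit3 was the single call, higher by 0.68 (adjusted p = 0.00209, edgeR), and with palmitate in the presence of A66 Oasl2 was, lower by 0.99 (adjusted p = 0.0282, edgeR), the latter lost without any 1 of the 4 libraries compared. With palmitate against untreated cells the median of the interferon-stimulated genes was 0.13, and it ran from 0.07 to 0.3 without any 1 library. The differences between the lists were not tested.

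**Figure D4:**
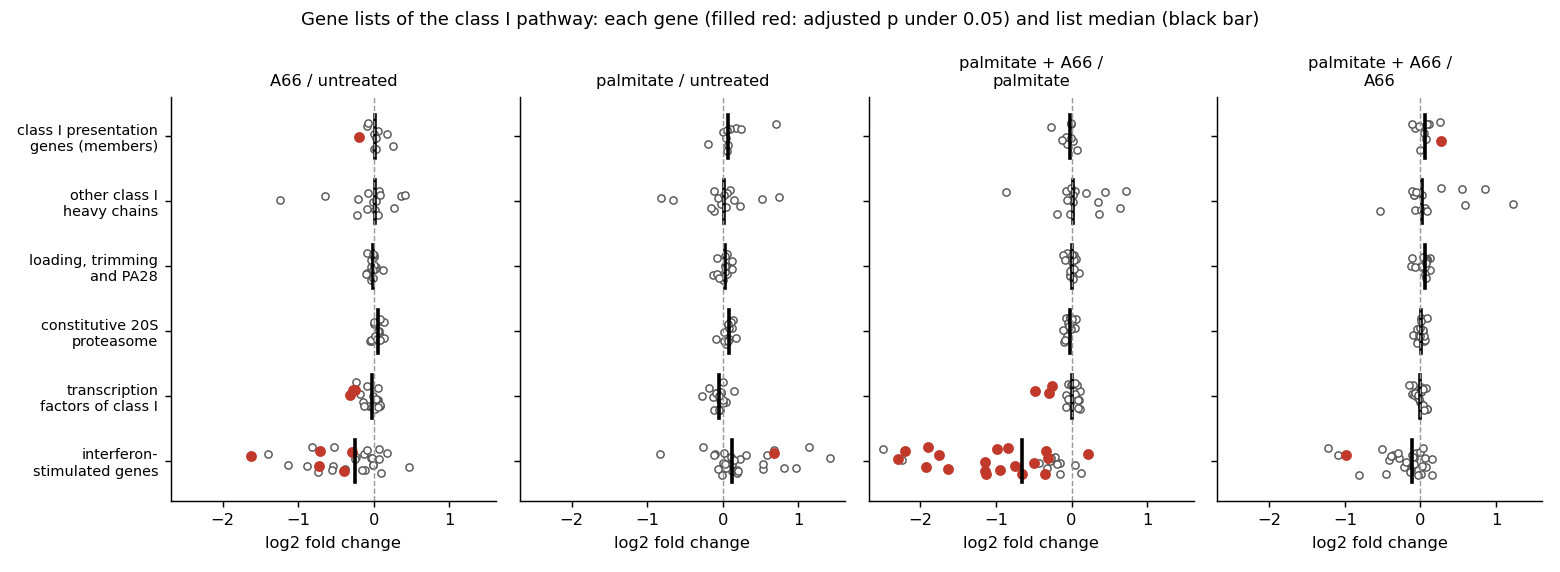
Log2 differences (horizontal axes) of each gene in 6 lists of the class I pathway in the 4 comparisons, with filled red points where the adjusted edgeR p was under 0.05 and a black bar at the median of the list. The interferon-stimulated genes spread to the left with A66 in the presence of palmitate, with a median of -0.65, and the median of the class I members is -0.01.

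The remaining class I heavy chains, those of the Q, T and M regions with Cd1d1, Mr1, Hfe and Fcgrt, were looked at as a list of 20, of which 18 matched and 15 passed the filter. None was called by edgeR in any of the 5 comparisons with all libraries (0 to 3 had an unadjusted p under 0.05). Fcgrt, the neonatal Fc receptor that also pairs with B2m, was the highest at 141 to 150 CPM, and Mr1, which shows vitamin metabolites, was at 23.9 to 26.6 CPM. H2-T10 was at 18.6 to 21.6 CPM, and H2-Q4 at 4.22 to 7.13 CPM. H2-Q4 had a log2 difference of 0.37 with A66 in the presence of palmitate (interval 0.02 to 0.72, adjusted p = 0.31, edgeR), and its highest value was in the second library with both agents, as for H2-D1. H2-Q2 and H2-T3 had no count in any library.

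The last comparison asked whether the response to A66 differed with palmitate. No member (0 of 10) was called for the interaction, against 0.00686% of 14587 genes (1 gene in all). At an unadjusted p under 0.05 H2-K1 was the single member of 10, against 7.92% of all genes tested. Its interaction was 0.20 on the log2 scale (interval 0.07 to 0.33, adjusted p = 0.437, edgeR), and DESeq2 also called 0 members. The change of H2-K1 with A66 against untreated cells and its value with A66 in the presence of palmitate were thus not shown to differ at this number of cultures. For Psmb9 the interaction was -0.45, with an interval from -1.16 to 0.27, so that it was not told apart from 0 at this depth and number of cultures. Without the first library with both agents it was -0.18, without the second -0.78, and without the first A66 library -0.26.

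Over the 10 genes the groups did not overlap for 5 with A66 against untreated cells (42.5% of 14587 genes), 6 with palmitate against untreated cells (40.5%), 2 with A66 in the presence of palmitate (44.3%) and 4 with palmitate in the presence of A66 (46.6%). With 2 libraries a group such separation is common among all genes. The median log2 difference of the members was 0.02, 0.07, -0.01 and 0.06 in these comparisons. Without any 1 library it ran from 0.00 to 0.04, 0.05 to 0.14, -0.09 to 0.02 and -0.03 to 0.13 in the same order. Centred on its own mean in each gene, the median member was highest in the second library with both agents (0.10) and the second palmitate library (0.09), and between -0.04 and 0.01 in the other 6. The genes whose centred log2 values over the 8 libraries were closest to that median were Cnot4, Ralb, Msl3, Gstt3 and Pfkfb4, with root mean square differences of 0.02 to 0.03 against a median of 0.08 over 8923 genes. In all 291 genes lay under 0.05, and a gene without any variation would score 0.06, so these 5 do not stand far apart.

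Genes that mark the state of PI3-kinase signalling were read beside these. With A66 against untreated cells 3 of 10 insulin-induced genes fell and none rose, among them Elovl6 (a fatty acid elongase, by 0.32, adjusted p = 0.00245, edgeR). The count was 1 without the second A66 library, 2 without the first and 6 without the second untreated library, and the call of Elovl6 held throughout. With A66 against untreated cells none of 12 FOXO-activated genes, which insulin signalling holds down, was called by edgeR (1 had an unadjusted p under 0.05). With palmitate against untreated cells 1 was called, Bcl6, which fell. With A66 in the presence of palmitate 1 rose and 1 fell, and with palmitate in the presence of A66 1 rose and 2 fell. With palmitate in the presence of A66, the comparison in which H2-K1 rose, 5 of the 10 insulin-induced genes rose, among them Acly (which makes acetyl-CoA for lipid synthesis), by 0.44 (adjusted p = 2.14e-07, edgeR). Whether these differences bear on that in H2-K1 was not tested.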

How the data were processed

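Poly(A) RNA of 8 3T3-L1 cultures was sequenced with a stranded kit. Reads were aligned to GRCm38 with TopHat2 2.0.11 and counted with HTSeq by the authors, whose deposited table holds raw counts for each Ensembl gene, not normalized, in 1 column per library. The HTSeq version, annotation and strand setting are not given in the sources used here. The 6 columns of the authors' own DESeq2 comparison (mean, log2 fold change, error, statistic, p-value and adjusted p-value) were not used. Samples were grouped by the treatment in the labels. Of 43629 genes, 42462 matched a symbol in GENCODE M21, and 327 without a match had counts and kept their identifiers in all fits.

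Tests were run with edgeR 4.0.16 in R 4.3.3 (TMM, filterByExpr with a minimum count of 10, quasi-likelihood tests, Benjamini-Hochberg adjustment over all genes tested, called at an adjusted p under 0.05). The fit of A66 against untreated cells held the 4 libraries of those groups, and the other comparisons were made in all 8. CPM values are on the TMM scale of all 8 libraries. The 95% intervals come from the log2 value and its SE. Levels between genes were divided by exon length. Over all genes tested, an unadjusted edgeR p under 0.05 was reached by 12.8% with A66 against untreated cells and 12% with palmitate against untreated cells. The share was 14.4% with A66 in the presence of palmitate, 14.6% with palmitate in the presence of A66 and 7.92% for the interaction. Replicates differed by more than counting noise (mean chi-square per gene of 6.33, 6.15, 8.99 and 7.80 for untreated, A66, palmitate and both).

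The alternatives were RLE factors, library size only, DESeq2 1.42.0, other filters, a fit on more or fewer libraries, a block for replicate number, leaving out each library and, chosen after seeing the data, another gene length and the list counts, medians and called list genes without each library. The text names all 10 members in every comparison, from each other list the 2 genes with the smallest p and Psmb5, Psmb6, Psmb7, Irf1, Rfx5 and Irf7, with defining markers and absent genes named as checks, and the 5 genes nearest in pattern with at least 10 CPM. Levels of further list genes (such as Fcgrt and H2-T10) were picked for their abundance. Some genes that this rule takes are not reported here. The members and lists were chosen with earlier results of these data known. On simulated counts with 200 genes changed by 0.5 on the log2 scale, 174 (87.0%) were recovered with 11 false calls in the 4 libraries of A66 against untreated cells (14158 genes), and 169 (84.5%) with 8 false calls in the 8 libraries for palmitate against untreated cells (14587 genes). The simulated spread followed the trend with level and not each gene's own spread. Smaller changes, such as those of most members, were not simulated, so their recovery was not tested.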

Additional observations from a re-analysis of the deposited data

How the results depend on the processing

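The calls of H2-K1, lower with A66 against untreated cells (adjusted p between 0.00261 and 0.0225) and higher with palmitate in the presence of A66 (1.17e-06 to 0.000905, edgeR or DESeq2), held under each change of normalization, test, filter and libraries other than leaving 1 out. Without 1 library, members called were 0 to 2 with A66 against untreated cells, and 1 throughout with palmitate in the presence of A66. Without the filter on low counts the genes called rose to 459 with A66 against untreated cells, 396 with palmitate against untreated cells, 652 with A66 in the presence of palmitate, 664 with palmitate in the presence of A66 and 91 for the interaction. With the 4 compared libraries only, palmitate in the presence of A66 gave 689. The interaction gave 2 genes with library size only and 6 with DESeq2. Scaling by library size only moved the split of called genes from 152 higher and 109 lower to 126 and 154 with A66 against untreated cells, from 92 and 79 to 83 and 105 with palmitate against untreated cells, from 142 and 268 to 107 and 350 with A66 in the presence of palmitate, and from 213 and 185 to 180 and 266 with palmitate in the presence of A66. The cause was not tested. Without 1 library the genes called ranged from 98 to 635, 71 to 245, 147 to 494, 107 to 502 and 0 to 10 in the order of the comparisons above. Interferon-stimulated genes called ranged from 2 to 11 with A66 against untreated cells.

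The replicate numbers of the labels are not stated to mark a shared day or batch, and the correlations of same-numbered deviations between groups ran from -0.147 to 0.153 over 8956 genes. In the fit with a replicate block the genes called were 282, 195, 448 and 438, and 3 for the interaction, and no call of a member changed.

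Small member values changed sign. With library size only this held for H2-D1 (-0.013) and Tapbp (-0.016) with A66 against untreated cells, H2-D1 with palmitate against untreated cells (-0.0032) and Psmb10 with A66 in the presence of palmitate (-0.00086). Tapbp was at -0.0027 with all 8 libraries in the fit of A66 against untreated cells, and Nlrc5 at 0.0014 with A66 in the presence of palmitate when at least 10 counts were required in every library. Leaving out 1 library turned the sign with A66 against untreated cells for H2-D1 (-0.035 to 0.042), Tapbp (-0.027 to 0.032) and Psmb9 (-0.013 to 0.34). It did so with palmitate against untreated cells for H2-D1 (-0.037 to 0.052), B2m (-0.021 to 0.11), Tap2 (-0.024 to 0.14) and Psmb10 (-0.023 to 0.14). It did so with A66 in the presence of palmitate for H2-K1 (-0.058 to 0.052), H2-D1 (-0.017 to 0.16), B2m (-0.075 to 0.028), Tap1 (-0.17 to 0.057), Tap2 (-0.16 to 0.012), Psmb8 (-0.14 to 0.11), Psmb10 (-0.063 to 0.1) and Nlrc5 (-0.12 to 0.12). It did so with palmitate in the presence of A66 for H2-D1 (-0.01 to 0.16), Tapbp (-0.045 to 0.0052), Psmb8 (-0.14 to 0.11), Psmb9 (-0.077 to 0.53) and Psmb10 (-0.034 to 0.12). It did so for the interaction for H2-D1 (-0.016 to 0.15), Tap1 (-0.19 to 0.026), Psmb10 (-0.095 to 0.068) and Nlrc5 (-0.032 to 0.21). Where a group was left with 1 library, it was assumed to vary like the others. Depth limits Psmb8 and Psmb9, which had 115 to 184 and 59 to 120 counts per library.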
